A study of Talpa occidentalis with 24 samples.

Results

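The regions described here are the broad Polycomb domains of the gonads of the Iberian mole, Talpa occidentalis. A Polycomb segment is an unbroken stretch of genome that was assigned to the Polycomb repression state in 1 tissue, and segments of at least 20 kb were taken from 3 tissues and merged where they overlapped. Scaffolds 15 and 18 were left out. This gave 636 domains, out of 63028 merged Polycomb regions of any length on all scaffolds. Another 55209 merged regions outside scaffolds 15 and 18 held no segment of 20 kb, and 1010 broad domains lay on scaffolds 15 and 18. The members were chosen on their Polycomb state in all 3 tissues, so the amount of Polycomb state in them is given as a description and supports nothing.

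Chromatin immunoprecipitation with sequencing was performed on gonads of wild-type moles on day 7 after birth. In this species females have ovotestes, in which ovarian and testis-like tissue adjoin, and the 3 tissues were the ovarian portion of the ovotestis, the testicular portion of the ovotestis and the testis. There were 8 libraries per tissue, 2 replicates for each of 4 marks on histone H3: H3K4me3, which marks promoters, H3K4me1, which marks enhancers, H3K27ac, which marks active elements, and H3K27me3, which Polycomb complexes deposit. The authors combined the 8 libraries of a tissue into 1 segmentation, which gives every bin of 200 bp 1 of 7 named states. The deposited mole tables thus hold state names and no read counts, the depth behind each call is unknown, and there is no replicate with which to test a difference between tissues. The chromatin came from fixed whole tissue with many cell types, so fewer cells with a state and a weaker mark in each cell cannot be told apart. Positions are on the assembly named talOcc4 and count from 1. The gene models and gene table at hand lie on other assemblies, so no domain is matched to a gene and no marker gene could be read to check the tissue labels.

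Polycomb repressive complexes keep developmental genes silent. The second of them, PRC2, places methyl groups on lysine 27 of histone H3, and its subunit EED binds that mark, which lets the mark spread over long stretches from the CpG-rich sites where the complex is recruited. At many promoters the mark sits beside the activating mark H3K4me3, a combination called bivalent. Long tracts of H3K27me3 are known from clusters of developmental regulators such as the HOX genes, and they differ between cell types as lineages become fixed.

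The 636 domains covered 17.8 Mb, which is 0.896% of the 1991 Mb segmented outside scaffolds 15 and 18. They ran from 20 kb to 81.4 kb with a median of 25 kb, and 65 were at least 40 kb and 11 at least 60 kb long. The ovarian portion supplied 239 segments of at least 20 kb, the testicular portion 152 and the testis 454. These held 6.59%, 4.30% and 7.78% of all Polycomb bases of the ovarian portion, the testicular portion and the testis, so that most of the state in every tissue lay in shorter segments. The tissues differed in the total to begin with: outside scaffolds 15 and 18 the state covered 4.99% of bases in the ovarian portion, 4.85% in the testicular portion and 7.94% in the testis. The part of this total in the counts below was not tested. The length limit fell within a continuous run of lengths. Segments of 19.8 kb, just too short, numbered 6 in the ovarian portion, 5 in the testicular portion and 10 in the testis, and segments of 20 kb numbered 10 in the ovarian portion, 1 in the testicular portion and 18 in the testis.

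Few domains were broad in every tissue. Of the 636, 50 held a segment of at least 20 kb in all 3 tissues, 8 in the ovarian and testicular portions, 45 in the ovarian portion and the testis, and 46 in the testicular portion and the testis. The other domains were broad in 1 tissue alone: 132 in the ovarian portion, 46 in the testicular portion and 309 in the testis. Long segments broken by another state in 1 tissue count as absent there under this rule, and a rule based on coverage gave another picture. By coverage of at least 50% of the domain, 293 domains were in the Polycomb state in all 3 tissues, 70 in the ovarian portion alone, 5 in the testicular portion alone and 107 in the testis alone. Windows of 20 kb over the same scaffolds passed that coverage in 2.90% of cases in the ovarian portion, 2.69% in the testicular portion and 5.18% in the testis, and of the domains, chosen on this state, 444 in the ovarian portion, 390 in the testicular portion and 549 in the testis did so.

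The excess of domains broad in the testis alone depended on how many segments each tissue supplied. In a comparison added after the data were seen, the 152 longest segments were taken from each tissue, with ties kept (159 in the ovarian portion), which set the shortest at 22.8 kb in the ovarian portion, 20 kb in the testicular portion and 27 kb in the testis. The 346 merged domains then included 97 of the ovarian portion alone, 81 of the testicular portion alone and 85 of the testis alone, with 28 in all 3 tissues. Equal numbers largely fix these counts, since the domains of a tissue alone are roughly its segments less the shared ones. The length limits also differed, so a segment of 20 kb in the testis counted as absent while one in the testicular portion counted. Nothing is therefore read from these counts about the excess of the testis.

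**Figure D1:**
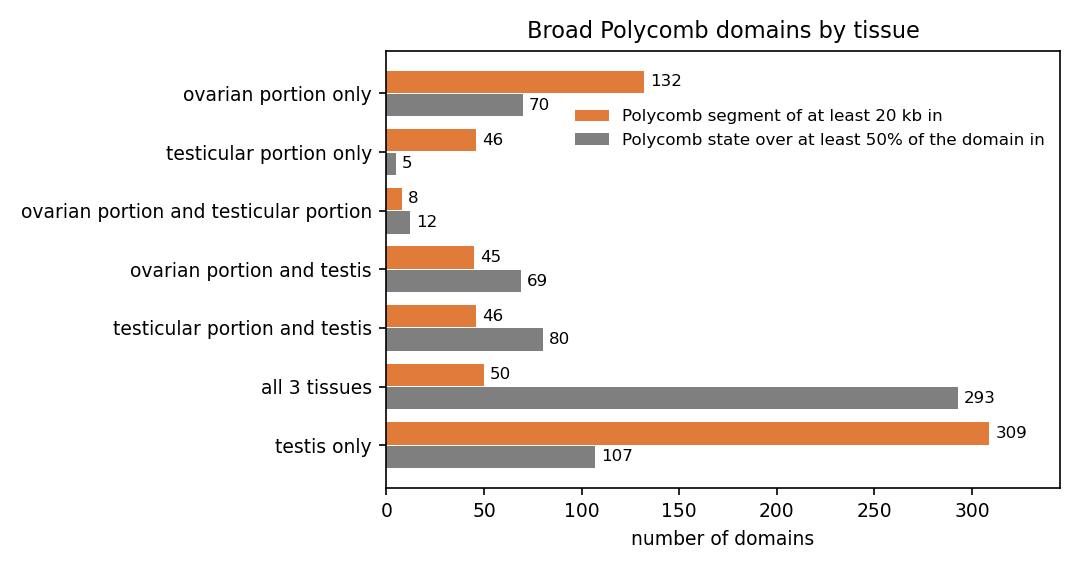
Number of broad Polycomb domains (horizontal axis) by the tissues in which they hold a Polycomb segment of at least 20 kb (orange) or are in the Polycomb state over at least 50% of their length (grey). Domains broad in the testis alone number 309 by segment length and 107 by coverage, while those of all 3 tissues number 50 and 293.

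The coverage of a domain in a tissue that did not hold it ranged widely. The 132 domains broad in the ovarian portion alone had a median of 24.9% Polycomb state in the testicular portion and 41.7% in the testis, and 39 had under 10% in the testicular portion and 37 in the testis. The 309 domains broad in the testis alone had medians of 47.0% in the ovarian portion and 51.8% in the testicular portion, with 54 under 10% in the ovarian portion and 41 in the testicular portion. The 46 domains broad in the testicular portion alone were mostly in the same state elsewhere: their medians were 65.6% in the ovarian portion and 81.6% in the testis, and only 2 had under 10% in the ovarian portion and 2 in the testis. Of these 46, 38 were Polycomb over at least 50% in the testis, in shorter or interrupted tracts.

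**Figure D2:**
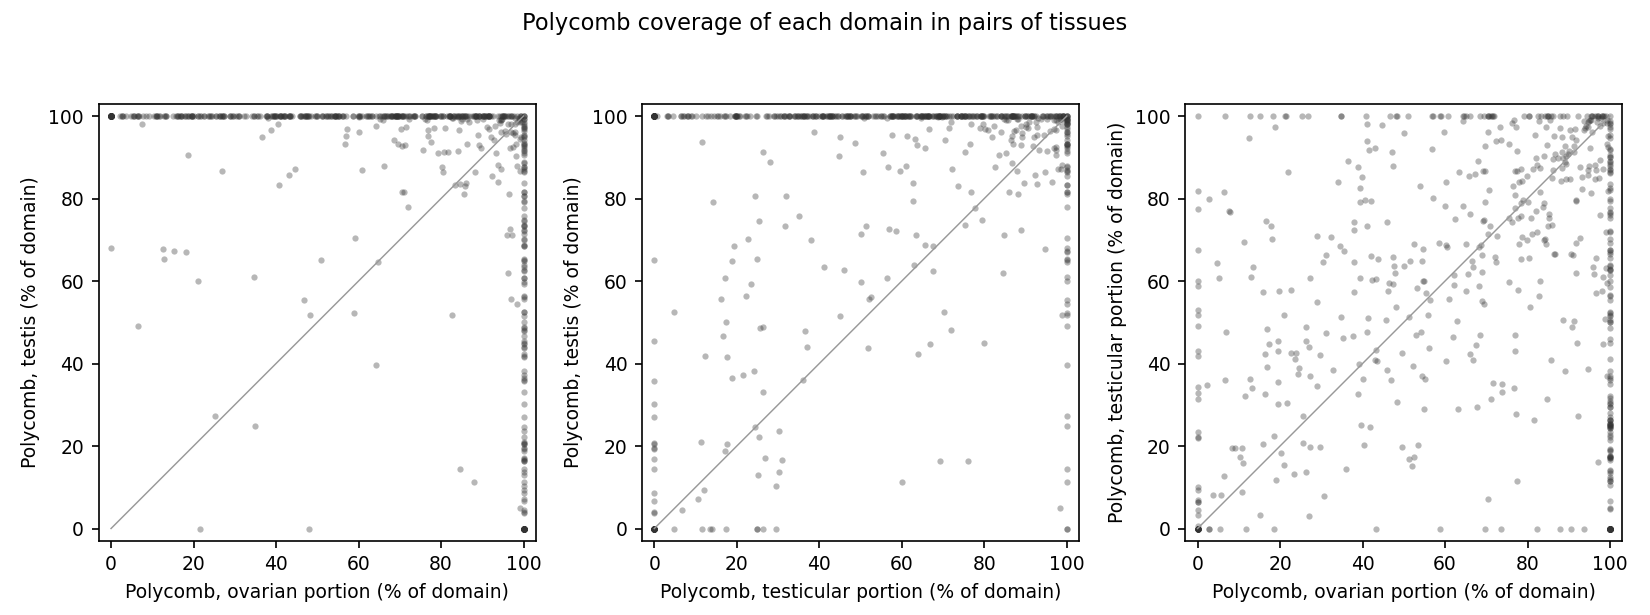
Percent of each domain in the Polycomb state in pairs of tissues, 1 point per domain (n = 636), with the line of equal coverage. Many points lie at 100% on 1 axis because each domain was chosen by an unbroken segment in at least 1 tissue, and along those lines coverage in the other tissue runs from 0 to 100%.

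A reading that the choice did not use was had by taking segments from 1 tissue and looking at the same bases in another. Of the bases in the 239 broad segments of the ovarian portion, 54.5% were in the Polycomb state in the testicular portion and 62.4% in the testis. Of those in the 152 broad segments of the testicular portion, 77.8% were in that state in the ovarian portion and 87.6% in the testis. Of those in the 454 broad segments of the testis, 58.2% were in that state in the ovarian portion and 61.7% in the testicular portion. Broad segments of the testicular portion were the most widely shared, and those of the ovarian portion the least shared with the testicular portion beside it.

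Length went with sharing in the testicular tissues and not in the ovarian portion. Segments of the testicular portion shorter than 20 kb were Polycomb over 56.1% of their bases in the ovarian portion and 76.1% in the testis, below the 77.8% and 87.6% of the broad ones. Segments of the testis shorter than 20 kb had 40.3% in the ovarian portion and 45.5% in the testicular portion, below 58.2% and 61.7%. For the ovarian portion the broad segments had no such excess: shorter ones were Polycomb over 55.5% of their bases in the testicular portion and 66.7% in the testis, slightly above the 54.5% and 62.4% of the broad ones. At 30 kb or more, 62 segments of the ovarian portion had 53.2% in the testicular portion and 58.4% in the testis, while 38 of the testicular portion had 81.2% in the ovarian portion and 87.6% in the testis. The shares have no replicate, and the part of the larger Polycomb total of the testis in them was not tested.

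**Figure D3:**
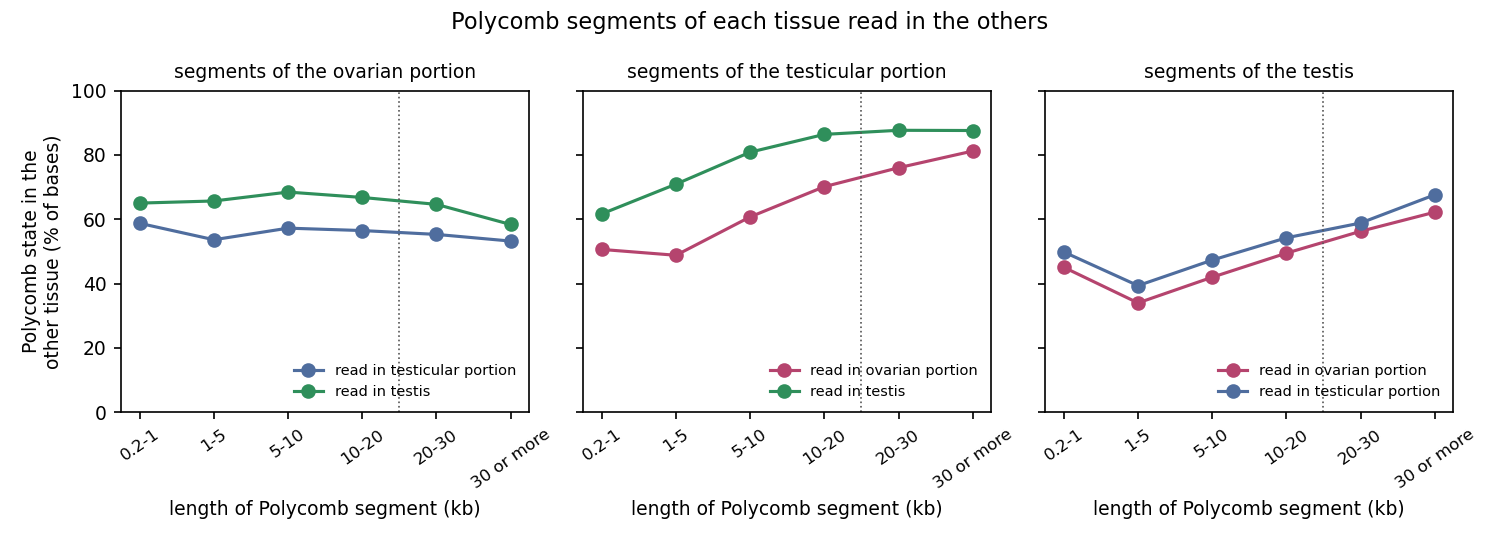
Percent of bases (vertical axis) of the Polycomb segments of 1 tissue that are in the Polycomb state in each other tissue, by segment length in kb (horizontal axis); the dotted line marks 20 kb. The lines of the testicular portion and the testis climb from 1 to 5 kb upwards, level in the testis above 20 kb for segments of the testicular portion, and those of the ovarian portion stay between 53.2% and 68.4%.

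Single segments spread over the whole range of coverage. Of the 239 broad segments of the ovarian portion, 62 were Polycomb over at least 90% in the testicular portion and 93 in the testis, while 40 had under 10% in the testicular portion and 38 in the testis. Between these ends, 60 had 10% to 50% and 77 had 50% to 90% in the testicular portion, and 42 and 66 did so in the testis. Read in both other tissues together, 130 of the 239 passed 50% in both and 71 in neither. Of the 152 of the testicular portion, 122 passed 50% in both others and 5 in neither. Of the 454 of the testis, 228 passed in both, 49 in the ovarian portion alone, 69 in the testicular portion alone and 108 in neither. Segments under 50% in both other tissues were thus few in the testicular portion.

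Differences of at least 50 percentage points in coverage were counted for each pair of tissues, beside the same count over 97635 adjoining windows of 20 kb. In the ovarian portion, 82 domains were at least 50 points above the testis and 181 below it, against 0.522% and 1.45% of the windows. In the testicular portion, 11 were above the testis and 155 below it, against 0.0707% and 1.08% of windows. The ovarian portion was above the testicular portion in 111 domains and below it in 41, against 0.665% and 0.270% of windows. The domains were chosen on coverage, and the testis supplied the most segments. Nothing is therefore read from the excess of the domains over the windows or from the medians that follow. Among the 636, coverage was lower in the ovarian portion than in the testis by a median difference of -18.4 points, lower in the testicular portion than in the testis by -22.4 points, and nearly equal in the ovarian and testicular portions at 0.797 points.

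Single domains show the range. The longest, on scaffold 17 at 2789001 to 2870400 and 81.4 kb long, was Polycomb over 47.7% in the ovarian portion, 63.6% in the testicular portion and 100% in the testis. Its longest unbroken stretch was 12 kb in the ovarian portion and 15.6 kb in the testicular portion. It was a single tract in the testis and a series of shorter ones in both portions of the ovotestis, with undefined chromatin over 46.7% of it in the ovarian portion and 28.5% in the testicular portion. A second testis tract of 71.6 kb lay close by at 2968401 to 3040000, with 29.6% in the ovarian portion, 19.8% in the testicular portion and 100% in the testis.

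Among the domains broad in all 3 tissues the longest lay on scaffold 7 at 130393801 to 130464200, 70.4 kb long. The ovarian portion held all of it in the Polycomb state, the testicular portion 96.9% and the testis 92.3%. Active enhancer state was at 0% in the ovarian and testicular portions and 2.84% in the testis, where it lay in the first kilobases of the domain. The 66.4 kb on scaffold 12 at 4516401 to 4582800 had 94.9% in the ovarian portion, 98.8% in the testicular portion and 100% in the testis, with bivalent promoter state over 1.81% in the ovarian portion alone. On scaffold 10, at 93167001 to 93248000, a domain of 81 kb had 98.0% in the ovarian portion, 57.5% in the testicular portion and 95.3% in the testis, so its breaks were mainly in the testicular portion, where 34.8% was undefined.

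The longest domain broad in the ovarian portion alone lay on scaffold 3 at 24070601 to 24133000 and was 62.4 kb long. The ovarian portion held 100% of it in the Polycomb state, against 6.73% in the testicular portion and 4.49% in the testis. The poised enhancer state covered 0% of it in the ovarian portion, 37.8% in the testicular portion and 47.4% in the testis, and the active enhancer state 0% in the ovarian portion, 2.56% in the testicular portion and 8.65% in the testis. The difference ran on past its end. In the next 20 kb the ovarian portion was 56% Polycomb and 44% bivalent promoter, whereas active enhancer state covered 23% in the testicular portion and 43% in the testis, with no bivalent promoter in either. Polycomb state there was at 16% in the testicular portion and 15% in the testis. In the 20 kb before its start the ovarian portion was 92% Polycomb and the testicular portion and the testis had none. The stretch was therefore mainly Polycomb and bivalent in the ovarian portion and mainly enhancer states or undefined in both testicular tissues, where short Polycomb tracts of at most 4.2 kb in the testicular portion and 2.8 kb in the testis lay inside the domain.

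**Figure D4:**
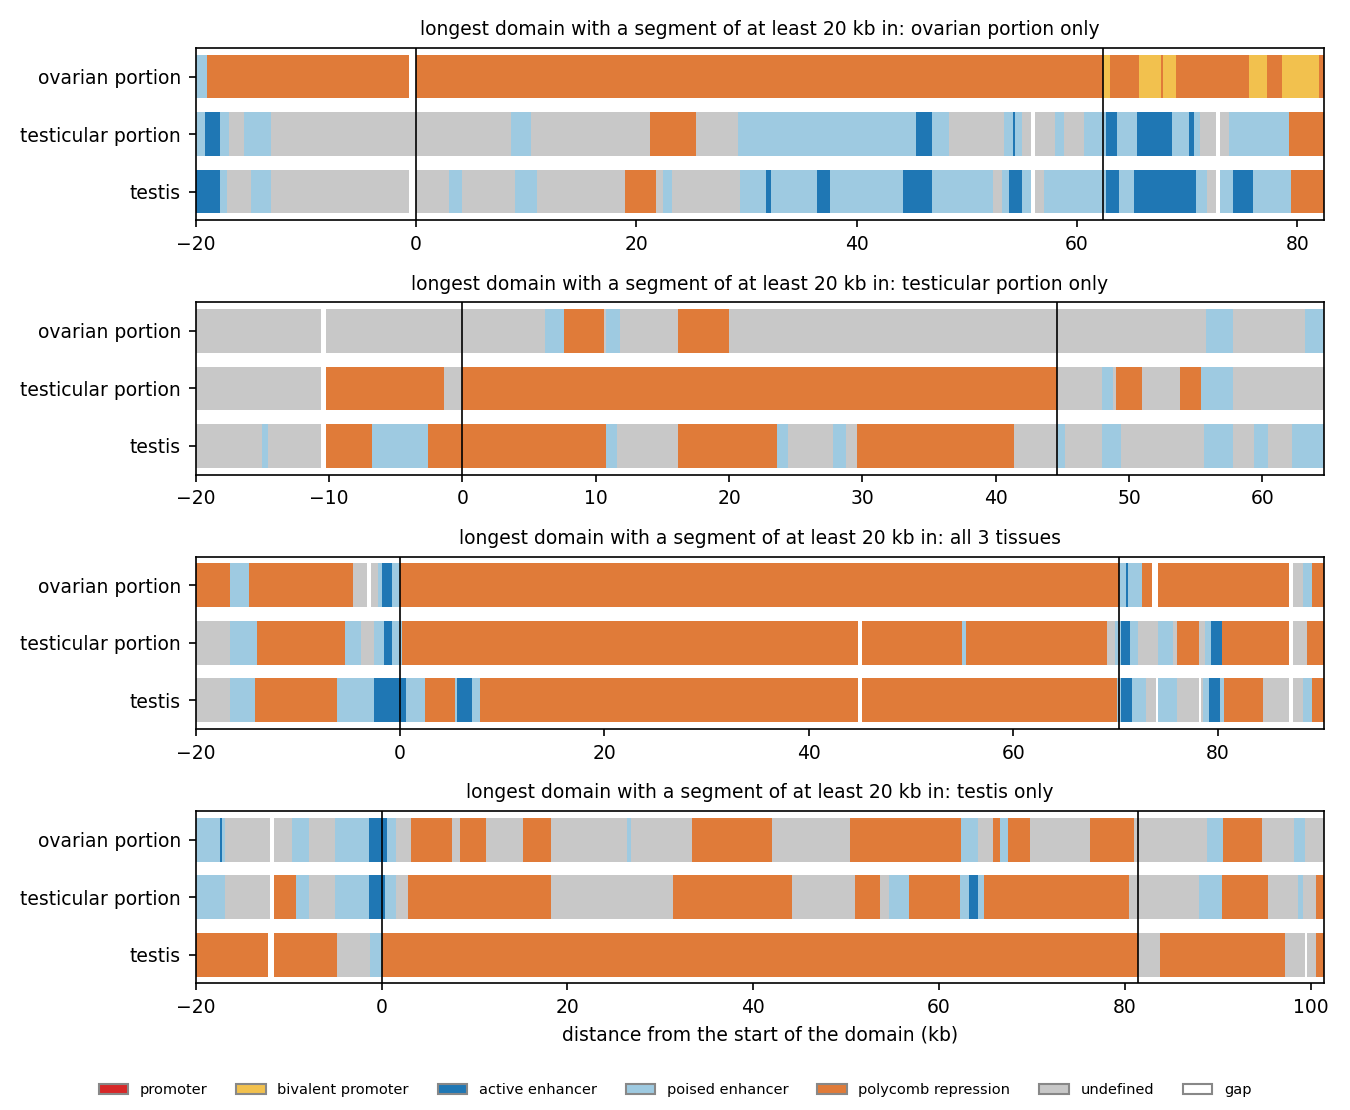
State of each 200 bp bin in the 3 tissues along 4 domains and 20 kb on each side (horizontal axis, kb from the start of the domain; vertical lines, its edges): the longest domain broad in the ovarian portion alone, the testicular portion alone, all 3 tissues and the testis alone. In the first, the ovarian portion is 100% Polycomb where the testicular portion and the testis are 37.8% and 47.4% poised enhancer; in the last, 1 tract of 81.4 kb in the testis meets tracts of at most 15.6 kb in the other tissues.

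Several domains had no Polycomb state at all in another tissue. Between the ovarian portion and the testis, 30 domains were at 100% in the ovarian portion and 0% in the testis and 38 were the other way round. The longest of the 30 was scaffold 9 at 92232801 to 92273600, 40.8 kb, with 100% in the ovarian portion and 0% in the testicular portion and the testis, and with undefined state over 98.5% in the testicular portion and 78.4% in the testis. The longest of the 38 was scaffold 2 at 144015801 to 144055800, 40 kb, with 0% in the ovarian portion, 4.5% in the testicular portion and 100% in the testis. Its poised enhancer share was 29% in the ovarian portion, 35.5% in the testicular portion and 0% in the testis.

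Counts of complete contrasts, here and above, are bound by the choice. A domain at 100% in a tissue is itself a segment of at least 20 kb there. The ovarian portion supplied 239 such segments, the testicular portion 152 and the testis 454. The counts thus lean towards the tissue with more segments, and nothing is read from them. The windows of 20 kb leaned the same way in the 2 comparisons that follow, at 50 points. Between the testicular portion and the testis, 2 domains had 100% in the testicular portion and 0% in the testis, against 27 of the opposite kind. Both lay near each other on scaffold 10, at 77701201 to 77736200 and 77620201 to 77646200, and had 48% and 21.5% in the ovarian portion. In the testis the first was 100% undefined and the second 99.2%. Between the portions of the ovotestis, 36 domains were at 100% in the ovarian portion and 0% in the testicular portion and 1 was the reverse, on scaffold 12 at 93813001 to 93841800, with 68.1% in the testis. Leading among the 36 by length was scaffold 12 at 25262201 to 25303400, 41.2 kb, with 100% in the ovarian portion, 0% in the testicular portion and 20.4% in the testis.

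What lay in place of the Polycomb state was mostly the undefined state, the state of most of the genome. Of the domain bases that were Polycomb in the ovarian portion and not in the testis, 77.1% were undefined in the testis, 19.1% poised enhancer and 1.51% active enhancer. For bases Polycomb in the testis and not in the ovarian portion, the ovarian portion had 75.9% undefined, 19.7% poised and 1.21% active enhancer. Outside the domains the undefined share was 68.6% and 74.3% for the same comparisons, and the poised share 19.4% and 19.9%. Bases that were Polycomb in 1 of these tissues and not in the other were thus seldom in an active state there.

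Few broad segments were given over to enhancer states in another tissue, which their Polycomb state there limits in part. Of the 239 broad segments of the ovarian portion, 6 had poised plus active enhancer over at least 50% of their length in the testicular portion and 6 in the testis; of the 152 of the testicular portion, 0 did so in the ovarian portion and 0 in the testis; and of the 454 of the testis, 7 did so in the ovarian portion and 3 in the testicular portion. Windows of 20 kb passed that share in 20.3% of cases in the ovarian portion, 20.5% in the testicular portion and 22.3% in the testis. A segment still Polycomb over at least 50% in the tissue read can hardly pass. That held for 139 segments of the ovarian portion in the testicular portion and 159 in the testis. For the testicular portion it held for 126 in the ovarian portion and 143 in the testis. For the testis it held for 277 in the ovarian portion and 297 in the testicular portion. The windows have no such bar, so nothing is read from the contrast. The fullest case in the ovarian portion was scaffold 12 at 56448201 to 56472600, 24.4 kb, which was 100% Polycomb there. It was 68.0% poised and 13.1% active enhancer in the testicular portion and 76.2% poised and 10.7% active enhancer in the testis. The fullest case in the testis was scaffold 6 at 77409001 to 77438400, 29.4 kb, 100% Polycomb in the testis. There the poised enhancer state covered 89.1% in the ovarian portion and 46.9% in the testicular portion. These examples were chosen after their values were seen.

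Bivalent and promoter states covered few bases of the domains. A bivalent promoter segment lay inside 117 domains in the ovarian portion, 76 in the testicular portion and 50 in the testis. A promoter segment lay inside 8 of the 636 domains in the ovarian portion, 4 in the testicular portion and 0 in the testis. In 469 of the 636 domains neither state occurred in any tissue, and in 5 one or the other occurred in all 3 tissues. A domain broad in 1 tissue alone is Polycomb throughout there by the choice and can hold neither state in that tissue. This holds for 309 domains in the testis, 132 in the ovarian portion and 46 in the testicular portion. The counts therefore cannot be compared between tissues. The Polycomb state itself took 68.0% of domain bases in the ovarian portion, 58.7% in the testicular portion and 83.7% in the testis. Over all domain bases, bivalent promoter covered 0.807% in the ovarian portion, 0.340% in the testicular portion and 0.327% in the testis. Outside the domains the shares were 0.705% in the ovarian portion, 0.690% in the testicular portion and 0.775% in the testis. The position of the ovarian portion above its share outside rested on the length limit, since its share inside was 0.494% in domains of at least 30 kb and 0.287% at 40 kb. In the shorter Polycomb regions bivalent promoter covered 1.81% in the ovarian portion, 1.39% in the testicular portion and 1.99% in the testis, more than in the domains in every tissue.

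The bivalent and promoter bases of each tissue were read in the others. Every base of a domain is Polycomb in at least 1 tissue by the choice, so a base that is bivalent in 1 tissue must be Polycomb in 1 of the others, and the Polycomb shares are largely fixed by that and given as a description. In the ovarian portion they came to 159 kb inside the domains, of which 77.6% were in the Polycomb state in the testicular portion and 83.0% in the testis. In the testicular portion 61.8 kb were bivalent or promoter, of which 50.8% were Polycomb and 36.2% bivalent in the ovarian portion and 85.1% were Polycomb in the testis. In the testis the sum was 58.4 kb, of which 54.1% were Polycomb and 43.8% bivalent in the ovarian portion and 82.9% were Polycomb in the testicular portion. Of the bivalent or promoter bases of the testicular portion 14.9% were bivalent in the testis, and of those of the testis 15.8% were bivalent in the testicular portion. These shares were below those in the ovarian portion, which held more bivalent or promoter bases in all. They too are bound by the choice, so nothing is read from the contrast.

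The 3 domains with the most bivalent and promoter bases were held unbroken by the testicular portion. On scaffold 12 at 4232201 to 4255800, 23.6 kb, bivalent promoter covered 51.7% in the ovarian portion, 0% in the testicular portion and 38.98% in the testis, and Polycomb 34.7% in the ovarian portion, 100% in the testicular portion and 61.0% in the testis. On scaffold 14 at 23985801 to 24007400, bivalent promoter covered 56.5% in the ovarian portion, 0% in the testicular portion and 16.7% in the testis. A neighbour at 23940201 to 23967200 had 28.9% in the ovarian portion, 0% in the testicular portion and 17.0% in the testis. In all 3 the testicular portion was Polycomb from end to end. In the ovarian portion bivalent promoter covered more than Polycomb in the first and the second, where Polycomb was at 34.7% and 40.7%, and less in the last, where it was at 71.1%. The first also held 4.24% active and 8.47% poised enhancer there.

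One short domain held much promoter state. On scaffold 19 at 3570601 to 3595200, 24.6 kb, the promoter state covered 39.8% in the ovarian portion and none in the testicular portion or the testis. Polycomb covered 39.02% in the ovarian portion, 39.8% in the testicular portion and 100% in the testis, and the testicular portion was 56.9% undefined. On scaffold 16 at 47063401 to 47100600, 37.2 kb, the ovarian portion had 5.38% promoter, 17.2% bivalent promoter and 10.8% active enhancer, with 44.6% Polycomb. The testicular portion was 97.8% Polycomb and the testis 87.1%. In both domains the promoter state belonged to the ovarian portion.

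Bivalent chromatin was frequent just outside the domains. In the first kb past an edge it covered 10.5% of bins in the ovarian portion, 9.78% in the testicular portion and 11.7% in the testis, well above the shares over all bases outside the domains given before. Over flanks of 20 kb on each side it covered 5.68% in the ovarian portion, 5.28% in the testicular portion and 5.63% in the testis. A bivalent segment lay within 1 kb of 163 domains in the ovarian portion, 152 in the testicular portion and 175 in the testis. This nearness was not particular to broad segments. Bivalent promoter adjoined 26.2%, 26.6% and 19.7% of the ends of shorter Polycomb segments in the ovarian portion, the testicular portion and the testis. For ends of broad segments the shares were 19.2%, 21.7% and 17.2%. The share of bins in the bivalent state was lower farther out but still 3.52% in the ovarian portion, 3.001% in the testicular portion and 3.45% in the testis at 49.5 kb. At these distances the tissues lay close together.

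Polycomb state also continued past the edges. By construction a Polycomb segment ends at each edge, and in the first kb outside the state covered 13.7% in the ovarian portion, 13.5% in the testicular portion and 13.6% in the testis. At 7.5 kb it covered 36.4% in the ovarian portion, 31.0% in the testicular portion and 46.1% in the testis. Over the 20 kb flanks it averaged 29.7% in the ovarian portion, 26.2% in the testicular portion and 37.1% in the testis, whereas of all bases outside the domains it held 4.42% in the ovarian portion, 4.37% in the testicular portion and 7.26% in the testis. The domains were thus set in surroundings with much more of the state than all bases outside them. The surroundings of shorter Polycomb segments were not measured, so this is not shown to be particular to broad domains. In the first kb the gap state, whose meaning is not given in the sources used here, covered 12.7% in the ovarian portion, 11.6% in the testicular portion and 14.7% in the testis. Of all bases outside the domains it covered 6.78% in the ovarian portion, 6.59% in the testicular portion and 6.95% in the testis. Its part in where the domains ended was not tested.

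**Figure D5:**
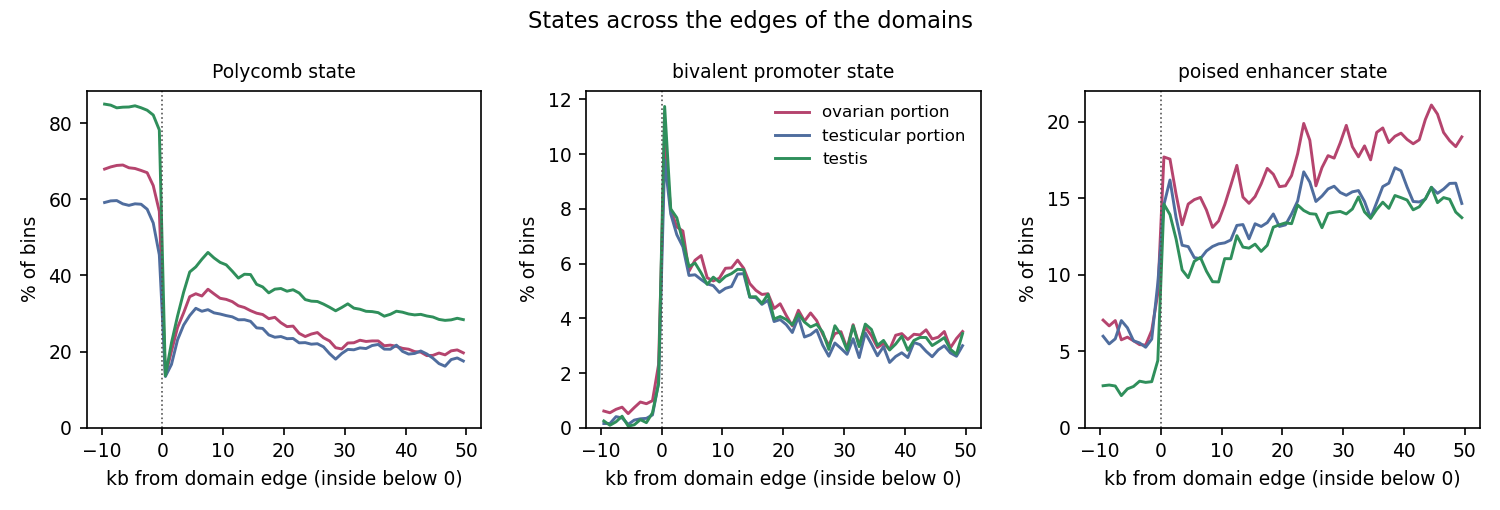
Percent of 200 bp bins (vertical axis) in the Polycomb, bivalent promoter and poised enhancer states by distance from a domain edge in kb (horizontal axis; negative inside), averaged over both edges of the domains in each tissue. Bivalent promoter peaks at 9.78% to 11.7% in the first kb outside in every tissue, where Polycomb is at 13.5% to 13.7%.

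Poised enhancer was scarce in the domains and returned outside. It covered 6.25% of domain bases in the ovarian portion, 6.26% in the testicular portion and 3.07% in the testis. In the flanks its share was 15.5% in the ovarian portion, 12.9% in the testicular portion and 11.8% in the testis, and of all bases outside the domains 23.4% in the ovarian portion, 22.0% in the testicular portion and 21.8% in the testis. Promoter plus active enhancer came to 0.459% in the ovarian portion, 0.342% in the testicular portion and 0.230% in the testis inside the domains, and outside them to 4.39% in the ovarian portion, 5.75% in the testicular portion and 6.10% in the testis. The states exclude each other, so these low shares follow in part from the choice of Polycomb stretches.

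The domains were unevenly spread over the large scaffolds. Of the 636, 627 lay on the 17 scaffolds of at least 1 Mb, which also hold nearly all segmented bases, so nothing is read from that count. Of those over 50 Mb, scaffold 12 had 76 domains, or 7.34 per 10 Mb, scaffold 17 had 6.76 and scaffold 9 had 5.33, while scaffold 4 had 1.48 and scaffold 6 had 1.57. Scaffolds 12, 14 and 17 also had high totals of the state. They had 9.29%, 7.33% and 6.50% in the ovarian portion, 7.56%, 7.07% and 7.22% in the testicular portion and 12.9%, 12.3% and 13.0% in the testis. Scaffold 14 had 4.95 domains per 10 Mb. Density and total did not always go together. Scaffold 9 had 6.73% in the ovarian portion, 5.74% in the testicular portion and 8.40% in the testis. Scaffold 2, with 2.41 domains per 10 Mb, had 5.95%, 6.99% and 9.77% in the same order.

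Domains were grouped with their neighbours by distance. With neighbours joined at distances of up to 100 kb, 300 domains (47.2%) fell in 102 clusters of 2 or more and 336 stood alone. The median distance between neighbours on a scaffold was 474.4 kb. No background share stands beside these counts, so whether domains lay closer together than other regions was not tested. Some neighbours were parted only by a short break. On scaffold 2 a domain ended at 144642200 and the next began at 144643801. Neighbours within 100 kb were broad in the same tissues in 80 of 198 pairs (40.4%), and neighbours farther apart in 149 of 412 (36.2%). Nearness alone went with a small difference, and it was not tested.

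Some clusters differed strongly between tissues. On scaffold 9 at 108023801 to 108417200, 6 of 8 domains were broad in the ovarian portion alone and 2 in the ovarian portion and the testis, and the whole span was Polycomb over 88.0% in the ovarian portion, 34.3% in the testicular portion and 49.5% in the testis. On scaffold 17 at 2484601 to 3040000, which contains the longest domain, all 8 were broad in the testis alone, and the span had 31.5% in the ovarian portion, 43.6% in the testicular portion and 85.1% in the testis. On scaffold 2 at 144528801 to 144714800, 5 domains, 1 broad in the ovarian portion alone and 4 in the testis alone, filled 131 kb of 186 kb, and the span was Polycomb over 69.4% in the ovarian portion, 0% in the testicular portion and 74.8% in the testis. The first span had the most Polycomb state in the ovarian portion, the second in the testis, and the last had none in the testicular portion. These clusters were chosen after their values were seen.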

How the data were processed

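Segmentations were deposited by the authors, 1 per mole tissue, from 24 libraries; the unit of the deposited values is a state name per segment (no number). STAR 2.6.1d and the build mm9 stand in the submitters' processing notes; the tool behind the mole segmentations is not given in the sources used here. Segments were read as bins of 200 bp with Python 3.11.15 and NumPy 2.4.6 and drawn with Matplotlib 3.10.9. Polycomb segments of at least 20 kb outside scaffolds 15 and 18 were merged where they overlapped. Percentages are of bases, with the gap state in the denominator, and call counts use 50 percentage points. The steps recovered the planted domains when tested on simulated data. No test was run, as replicates were pooled by the authors. The rule for named domains took the 10 longest, the 5 with the largest Polycomb difference in each direction for each pair of tissues (gap state under 10%), the 5 with most bivalent plus promoter bases and the 5 with most active bases; ties, longest domains of a pattern, clusters and enhancer examples were chosen after the values were seen. The members and lists were chosen with earlier results of these data known. Mouse segmentations and gene models were not used; 0 columns of other samples were set aside. Alternatives changed the length minimum, joining, scaffolds, gap handling, thresholds and flank width.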

Additional observations from a re-analysis of the deposited data

How the results depend on the processing

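With 1 segmentation per tissue and an unknown depth, no difference has a replicate check. No paired analysis was possible because the authors pooled the replicates of a tissue into 1 segmentation and no test was run; leaving out a replicate could not be done for the same reason. Of 192 alternative values, 90 stayed close to the reported ones and 102 moved, and the cause was not tested beyond what an alternative itself changes. Sets of 3 percentages are for the ovarian portion, the testicular portion and the testis.

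The number of domains was 3706 (59.9 Mb) at a minimum of 10 kb, 163 (6.44 Mb) at 30 kb, 54 (2.72 Mb) at 40 kb, 1093 (33.3 Mb) with segments joined across 1 kb, 202 (5.60 Mb) without domains that touch a gap and 346 (11.2 Mb) with equal numbers of longest segments, an alternative chosen after seeing the data. The Polycomb share of domain bases was 61.1% in the ovarian portion at 10 kb, 72.6% and 64.0% in the ovarian and testicular portions at 30 kb, 75.6% and 64.1% at 40 kb, 77.6%, 63.3% and 100% as medians over domains, and 74.5%, 64.9% and 79.1% with equal numbers.

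Domains of all 3 tissues numbered 421, 293 and 148 by coverage of 25%, 50% and 75%, then 503, 8 and 2 at minimum lengths of 10, 30 and 40 kb, and 28 with equal numbers. Those of the ovarian portion alone numbered 44 and 70 by coverage of 25% and 50%, and 600, 42 and 11 by length. Those of the testicular portion alone numbered 1, 5 and 19 by coverage of 25%, 50% and 75%, 282, 18 and 5 by length, and 81 with equal numbers. Those of the testis alone numbered 46 and 107 by coverage of 25% and 50%, 1542, 72 and 25 by length, and 85 with equal numbers.

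For segments of the ovarian portion, the Polycomb share at 40 kb was 46.4% in the testicular portion and 51.3% in the testis. For segments of the testicular portion it was 88.6% in the ovarian portion at 40 kb. For segments of the testis it was 52.0% in the ovarian portion and 56.4% in the testicular portion at 10 kb, 67.6% in the testicular portion at 30 kb, and 66.7% and 71.1% at 40 kb. With scaffolds 15 and 18 kept, segments of the ovarian portion had 88.3% in the testicular portion and 11.8% in the testis, and those of the testicular portion had 94.2% in the ovarian portion and 10.9% in the testis.

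Counts at differences of 25 and 75 points were 282 and 97 for the ovarian portion below the testis, 31 and 6 for the testicular portion above the testis, 302 and 71 for it below the testis, 172 and 72 for the ovarian portion above the testicular portion, and 107 and 13 for it below. As medians over domains, active and bivalent shares were 0 in every tissue and poised enhancer was 0%, 0.820% and 0%; at 40 kb, bivalent was 0.287% in the ovarian portion and 0.0735% in the testicular portion. In flanks of 5 kb, bivalent covered 7.77%, 7.41% and 8.09%, Polycomb 25.1%, 21.9% and 28.3%, and gap 7.02% in the ovarian portion and 7.53% in the testis. In flanks of 50 kb, bivalent covered 4.05%, 3.65% and 3.97%, Polycomb 24.0%, 21.7% and 32.2%, and undefined 46.5%, 51.6% and 41.5%. Domains with a bivalent or promoter segment inside numbered 28 in the ovarian portion, 15 in the testicular portion and 17 in the testis at 1000 bp, and 51 in the testicular portion at 400 bp.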

Other observations

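Breaks in the Polycomb tracts were counted inside the domains as a description. Domains were chosen by unbroken segments, of which the testis supplied the most, and the 309 domains broad in the testis alone have no break there by the choice, so the counts cannot be compared between tissues. Between Polycomb segments of the same domain there were 592 breaks in the ovarian portion, 529 in the testicular portion and 259 in the testis, and a single Polycomb segment was held by 267 domains in the ovarian portion, 228 in the testicular portion and 431 in the testis. Undefined chromatin filled 67.1% of the breaking bases in the ovarian portion, 79.1% in the testicular portion and 71.5% in the testis, and poised enhancer 23.2% in the ovarian portion, 16.9% in the testicular portion and 18.5% in the testis. Bivalent promoter filled 5.82% of them in the ovarian portion, 1.76% in the testicular portion and 4.89% in the testis. Where broad segments of 2 tissues overlapped, 36.3% of 204 edges were within 1 kb of each other for the ovarian portion and the testis, 47% of 200 for the testicular portion and the testis, and 41.7% of 120 for the ovarian and testicular portions. The median offset was 2.4 kb for the ovarian portion and the testis, 1.3 kb for the testicular portion and the testis, and 2 kb for the ovarian and testicular portions.

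Broad segments ended more often at poised enhancer than shorter ones did. Of the ends of broad segments, 21.3% adjoined it in the ovarian portion, 16.1% in the testicular portion and 14.98% in the testis, against 11.1% in the ovarian portion, 9.86% in the testicular portion and 11.5% in the testis for shorter segments. Bivalent promoter adjoined 19.2% in the ovarian portion, 21.7% in the testicular portion and 17.2% in the testis of the broad ends, and 26.2% in the ovarian portion, 26.6% in the testicular portion and 19.7% in the testis of the ends of shorter segments. Of the 9 domains on scaffolds under 1 Mb, 7 were broad in the testis alone, against 48.6% of all 636 domains. The number is small, and nothing is read from it. The domain on scaffold 674 was broad in all 3 tissues. The domain with the opposite sign was on scaffold 631 at 3201 to 27800. It had 99.2% Polycomb in the ovarian portion, 98.4% in the testicular portion and 4.88% in the testis. Whether this small scaffold belongs with the scaffolds left out was not tested.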
